A study of Mus musculus with 26 samples.

Results

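Replication-dependent histone genes were examined in poly(A)-selected RNA-seq libraries of R1 mouse embryonic stem cells (ESCs), the cells in which the study followed DUX, a transcription factor of the 2-cell embryo. Members were the genes of the count table whose symbol begins with Hist1h, Hist2h, Hist3h or Hist4h and that held at least 10 counts over all libraries. This rule found 9 genes of the 55291 in the table, all of them with Hist1 symbols. Of these, Hist1h2al is annotated as a processed pseudogene and lies apart from the Hist1 cluster. They were 4 H2A genes (Hist1h2an, Hist1h2ao, Hist1h2ap and Hist1h2al), 3 H2B genes (Hist1h2bp, Hist1h2bq and Hist1h2br) and 2 H4 genes (Hist1h4m and Hist1h4n). The table lists another 61 genes of the same family under newer symbols (such as H2ac8 or H4c9), and these 61 serve here only as a comparison. No H1 or H3 gene, and no gene of the Hist2, Hist3 or Hist4 cluster, fell under the rule.

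Histone H2A, H2B, H3 and H4 proteins form the core of the nucleosome, and H1 binds the DNA that links nucleosomes. The genes called replication-dependent are transcribed mainly in S phase, when new DNA has to be packed. Their mRNAs usually end in a conserved stem-loop that is bound by SLBP and cut by the U7 snRNP, and not in a poly(A) tail. A library made from poly(A) RNA therefore holds mostly those histone transcripts that carry a tail, or the few others that escape the selection, and its histone counts are not a measure of the whole histone mRNA pool.

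The 26 libraries formed 13 groups of 2. The wild-type groups were untreated ESCs (ESC), the vehicle control (DMSO), retinoic acid at 0.53 µM for 48 h (RA), pladienolide B, an inhibitor of the spliceosome, at 4 nM for 4 days (PlaB), and cells in which doxycycline at 4 µg/ml for 24 h switched on Dux (Dux OE), Dux carrying the substitution R70A (Dux R70A OE) or Zscan4 (Zscan4 OE). Dux knockdown (Dux KD) was combined with RA, with PlaB and with Zscan4 OE, and deletion of a super-enhancer (SE KO; the study describes deletion of one near the Tdpoz genes) with RA, with PlaB and with Dux OE. All cells were R1 mESCs grown with LIF on gelatin. The study's captions call the libraries of its SE KO comparisons with Dux OE and with RA biological replicates. For the other groups nothing read here says whether the 2 libraries came from separate cultures, so their p-values measure only the spread between these libraries, which may be technical. Whether the SE KO line is 1 clone, and which shRNA the knockdown libraries carried, is not given in the sources used here. One library titled SE KO RA carries the genotype label WT, and the Dux KD Zscan4 OE libraries carry the treatment label "no". They were grouped by title.

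Library totals ran from 14401452 to 39402840 counts, with a median of 18276934, so that 3 counts in 1 library were worth 0.0796 to 0.226 CPM (counts relative to library size, scaled by TMM throughout). The 5 ESC markers (Pou5f1, Sox2, Nanog, Esrrb and Zfp42) were present in all groups, with summed levels of 1260 to 5120 CPM. Summed levels of 5 markers of the 2-cell-like state (Zscan4c, Zscan4d, Duxf3, Zfp352 and Tcstv3) were 3.5 ± 0.991 CPM in DMSO, 6920 ± 19.4 in PlaB and 2710 ± 47.0 in Dux OE (SD, n = 2). Duxf3, the Dux gene of the table, had 191 and 181 counts in PlaB, 1 and 0 in DMSO and 1 and 0 in the libraries labelled Dux KD PlaB. It had 49 and 59 in RA against 16 and 6 in Dux KD RA, and 27 and 17 in Zscan4 OE against 1 and 0 in Dux KD Zscan4 OE. Dux R70A OE held 0 counts of Duxf3 in both libraries, so that these counts do not check the transgenes. Summed markers of other cells ranged over the libraries from 9.43 to 117 CPM for fibroblasts, 1.77 to 64.0 for primitive endoderm, 2.92 to 24.7 for trophectoderm and 22.2 to 149 for germ cells, and they moved between groups. Of the 4 primitive endoderm markers, 2 were called higher than in DMSO in PlaB, 3 in RA and 3 in SE KO PlaB. Of 5 fibroblast markers, 2 were called higher and 1 lower in PlaB than in DMSO. The part of such cells in the histone results was not tested.

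The libraries labelled Dux KD PlaB and SE KO PlaB stood apart from those of PlaB in wild-type cells. Of the 12331 genes called between PlaB and DMSO, 12.3% were called in the same direction between Dux KD PlaB and DMSO, and 31.4% between SE KO PlaB and DMSO. Groups without PlaB gave 9.22% to 31.6% against DMSO. The 5 markers of the 2-cell-like state were called higher than in DMSO in SE KO PlaB, with 405 ± 67.6 CPM in sum, and 0 of the 5 in Dux KD PlaB, with 3.92 ± 0.375 CPM. Results that rest on these libraries are given with that in view, and whether the drug acted fully in them was not tested.

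The sequences of the 9 genes bear on what their counts can mean. In the GENCODE M21 transcripts (GRCm38, all on chromosome 13), 8 of the 9 lie between 21786826 and 21837530, and Hist1h2al lies apart at 51202727 to 51203065 on the minus strand, annotated as a processed pseudogene. The 8 held 3 head-to-head pairs of an H2A and an H2B gene. Hist1h2an and Hist1h2bp are separated by 242 bases, Hist1h2bq and Hist1h2ao by 267, and Hist1h2ap and Hist1h2br by 235. Hist1h4m stands beside the pair of Hist1h2bq and Hist1h2ao, and Hist1h4n beside that of Hist1h2ap and Hist1h2br.

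**Figure D1:**
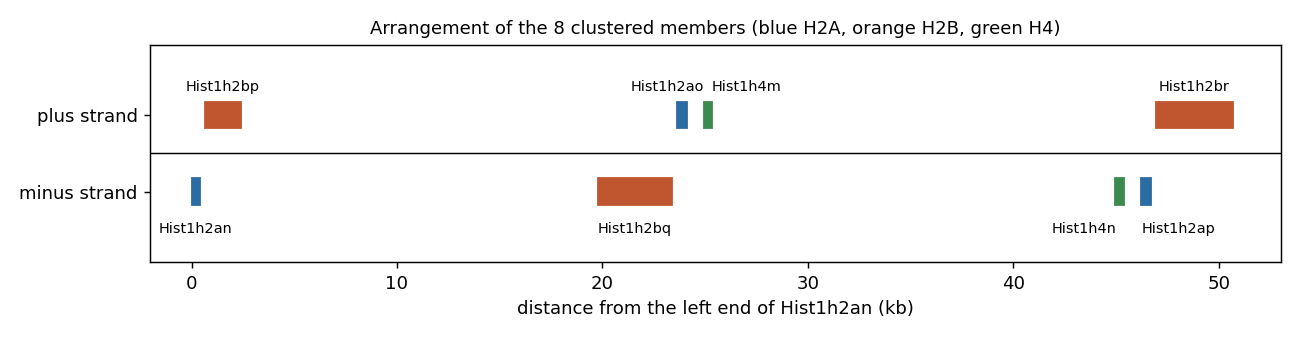
Arrangement of the 8 clustered histone genes on chromosome 13 by strand, with distance in kb from the left end of Hist1h2an on the horizontal axis and boxes from the first to the last annotated base of each gene. Blue marks H2A, orange H2B and green H4, and the wide boxes of Hist1h2bq and Hist1h2br are the genes with spliced isoforms.

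A stem-loop was searched as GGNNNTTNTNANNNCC downstream of the stop codon, in the sense strand of each transcript. It was found in 5 of the 9 genes and in 41 of the other 61. The 5 are shown because the stem-loop is what normally keeps these mRNAs out of a poly(A) library. Capitals mark the 16 bases of the match, in which 6 bases on each side can pair.

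Hist1h2ao: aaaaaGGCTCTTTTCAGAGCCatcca
Hist1h2ap: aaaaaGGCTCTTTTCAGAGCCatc
Hist1h2bp: acaaaGGCTCTTTTCAGAGCCaccca
Hist1h4m: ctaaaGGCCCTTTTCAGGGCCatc
Hist1h4n: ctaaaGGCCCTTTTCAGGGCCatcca

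The stem is identical in the H2A and H2B genes and differs in the H4 genes. The match starts 38 bases after the stop codon in Hist1h2ao and Hist1h2ap, 27 in Hist1h2bp and 33 in both H4 genes. The annotated models of Hist1h2an, Hist1h2bq, Hist1h2br and Hist1h2al hold no match. Models such as that of Hist1h2an, at 393 bases, end close to the coding sequence, so no match there says only that these letters are not in the annotated transcript. The 3 H2B genes also have spliced isoforms without the stem-loop, and each of the 3 has an isoform with the poly(A) signal AATAAA starting 23 to 27 bases before its end. Spliced isoforms were annotated in 3 of the 9 genes and in 2 of the other 61.

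Several of these genes are near copies of each other, which limits how reads can be divided between them. The longest coding sequences of Hist1h2ao and Hist1h2ap did not differ over 390 bases, those of Hist1h4m and Hist1h4n did not differ over 309, and those of Hist1h2bq and Hist1h2br did not differ over 402. Of all 50-base windows of the annotated transcripts, the share found in no other gene was 55.9% in Hist1h2bp and 32.4% in Hist1h2al, but 14.4% in Hist1h4n, 14.2% in Hist1h2an, 11.3% in Hist1h2br, 10.2% in Hist1h4m, 6.9% in Hist1h2ap, 6.5% in Hist1h2ao and 2.7% in Hist1h2bq. How reads with several matches were counted is not given in the sources used here. Counts of Hist1h2ao and Hist1h2ap, of Hist1h4m and Hist1h4n, and of Hist1h2bq and Hist1h2br are therefore uncertain as to which of the pair they came from. Genes outside the 9 were close too. Over 390 coding bases, H2ac7 and H2ac11 each differed from Hist1h2an at 4 and from Hist1h2ao and Hist1h2ap at 3. Over 309, H4c8 and H4c9 each differed from Hist1h4m and Hist1h4n at 10. Some counts of the 9 may therefore have come from other genes of the family. MicroRNA models on the opposite strand overlap the 4 H2A genes and held 0 or 1 count in all, and whether the counting used strand is not given either.

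The promoter windows of 8 of the 9 genes were found in RefSeq (GRCm38.p6, 250 bases before to 50 after the start), with none for Hist1h2al. Windows are shown for Hist1h2ap, which had the largest rise with PlaB, and for Hist1h4n, which also rose with Dux OE. Those of Hist1h2bp and Hist1h2bq are shown as H2B genes of which only the first was called higher with PlaB. Capitals mark the TATA motif TATAA, which reads TTATA where it lies on the opposite strand. They also mark the motif CCAAT, there written ATTGG. The longest runs of capitals mark ATTTGAAT, which becomes ATTCAAAT when reversed.

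Hist1h2ap, chr13:21833426-21833725, minus strand: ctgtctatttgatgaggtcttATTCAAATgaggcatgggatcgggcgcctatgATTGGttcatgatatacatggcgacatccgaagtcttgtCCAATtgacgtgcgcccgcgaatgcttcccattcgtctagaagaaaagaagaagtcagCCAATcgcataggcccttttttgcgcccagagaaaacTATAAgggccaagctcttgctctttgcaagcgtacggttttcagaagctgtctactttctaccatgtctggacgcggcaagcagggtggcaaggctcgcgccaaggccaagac
Hist1h4n, chr13:21832148-21832447, minus strand: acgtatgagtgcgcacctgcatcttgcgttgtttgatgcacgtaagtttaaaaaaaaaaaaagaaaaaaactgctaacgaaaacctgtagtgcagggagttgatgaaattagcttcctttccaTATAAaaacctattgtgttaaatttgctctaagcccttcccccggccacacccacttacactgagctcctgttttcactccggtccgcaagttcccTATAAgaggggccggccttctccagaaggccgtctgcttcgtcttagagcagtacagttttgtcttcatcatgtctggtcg
Hist1h2bp, chr13:21787238-21787537, plus strand: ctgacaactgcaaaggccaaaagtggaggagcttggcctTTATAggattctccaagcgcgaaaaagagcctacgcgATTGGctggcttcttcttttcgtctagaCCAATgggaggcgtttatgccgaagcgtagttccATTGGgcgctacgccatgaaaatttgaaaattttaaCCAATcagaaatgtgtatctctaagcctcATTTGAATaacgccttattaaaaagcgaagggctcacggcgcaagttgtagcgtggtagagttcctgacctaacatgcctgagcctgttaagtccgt
Hist1h2bq, chr13:21810150-21810449, minus strand: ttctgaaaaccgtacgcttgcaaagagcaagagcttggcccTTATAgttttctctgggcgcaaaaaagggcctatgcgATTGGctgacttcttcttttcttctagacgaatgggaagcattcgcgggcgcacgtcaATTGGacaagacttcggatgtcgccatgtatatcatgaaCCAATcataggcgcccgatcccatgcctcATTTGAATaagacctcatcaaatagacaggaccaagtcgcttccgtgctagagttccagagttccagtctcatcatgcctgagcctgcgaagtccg

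TATAA was present in 8 of the 8 windows, against 24.9% of all 32851 RefSeq promoter windows. CCAAT was present in 6 of the 8, in all but the H4 genes, against 37.4% of all windows. The octamer ATTTGCAT was in 0 of the 8 and in 1.7% of all windows, while ATTTGAAT, searched after these sequences had been seen, was in 6 of the 8 and in 1.2% of all. Among the 63 RefSeq genes with a Hist1 to Hist4 synonym the shares were 79.4% for TATAA, 85.7% for CCAAT and 22.2% for each of both octamers, so that the first and second are common to the family. In each H2A and H2B pair the windows of both genes overlap on opposite strands, so that most motifs are shared. Hist1h2bq and Hist1h2br windows were identical over 300 bases, Hist1h2ao and Hist1h2ap windows over the 200 bases that aligned, and Hist1h4m and Hist1h4n windows differed at 1 of 299 bases.

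The counts were low. All 9 genes together had 2613 counts in the 26 libraries, of which 42.6% came from the PlaB libraries. Hist1h4n had 813 counts, Hist1h2bp 493, Hist1h2ap 409, Hist1h2ao 255, Hist1h2al 233, Hist1h2bq 219, Hist1h2an 112, Hist1h4m 53 and Hist1h2br 26. The share from PlaB was 86.3% for Hist1h2ap and 70.6% for Hist1h2ao, but 3.2% for Hist1h2bq and 15.4% for Hist1h2br. Per kb of the table's gene length, the mean level over all libraries was highest for Hist1h4n, at 3.62 CPM per kb and sixth in the family of 70, and lowest for Hist1h2br, at 0.0216 CPM per kb. The highest gene of the family, H2ac8, had 11.4 CPM per kb.

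**Figure D2:**
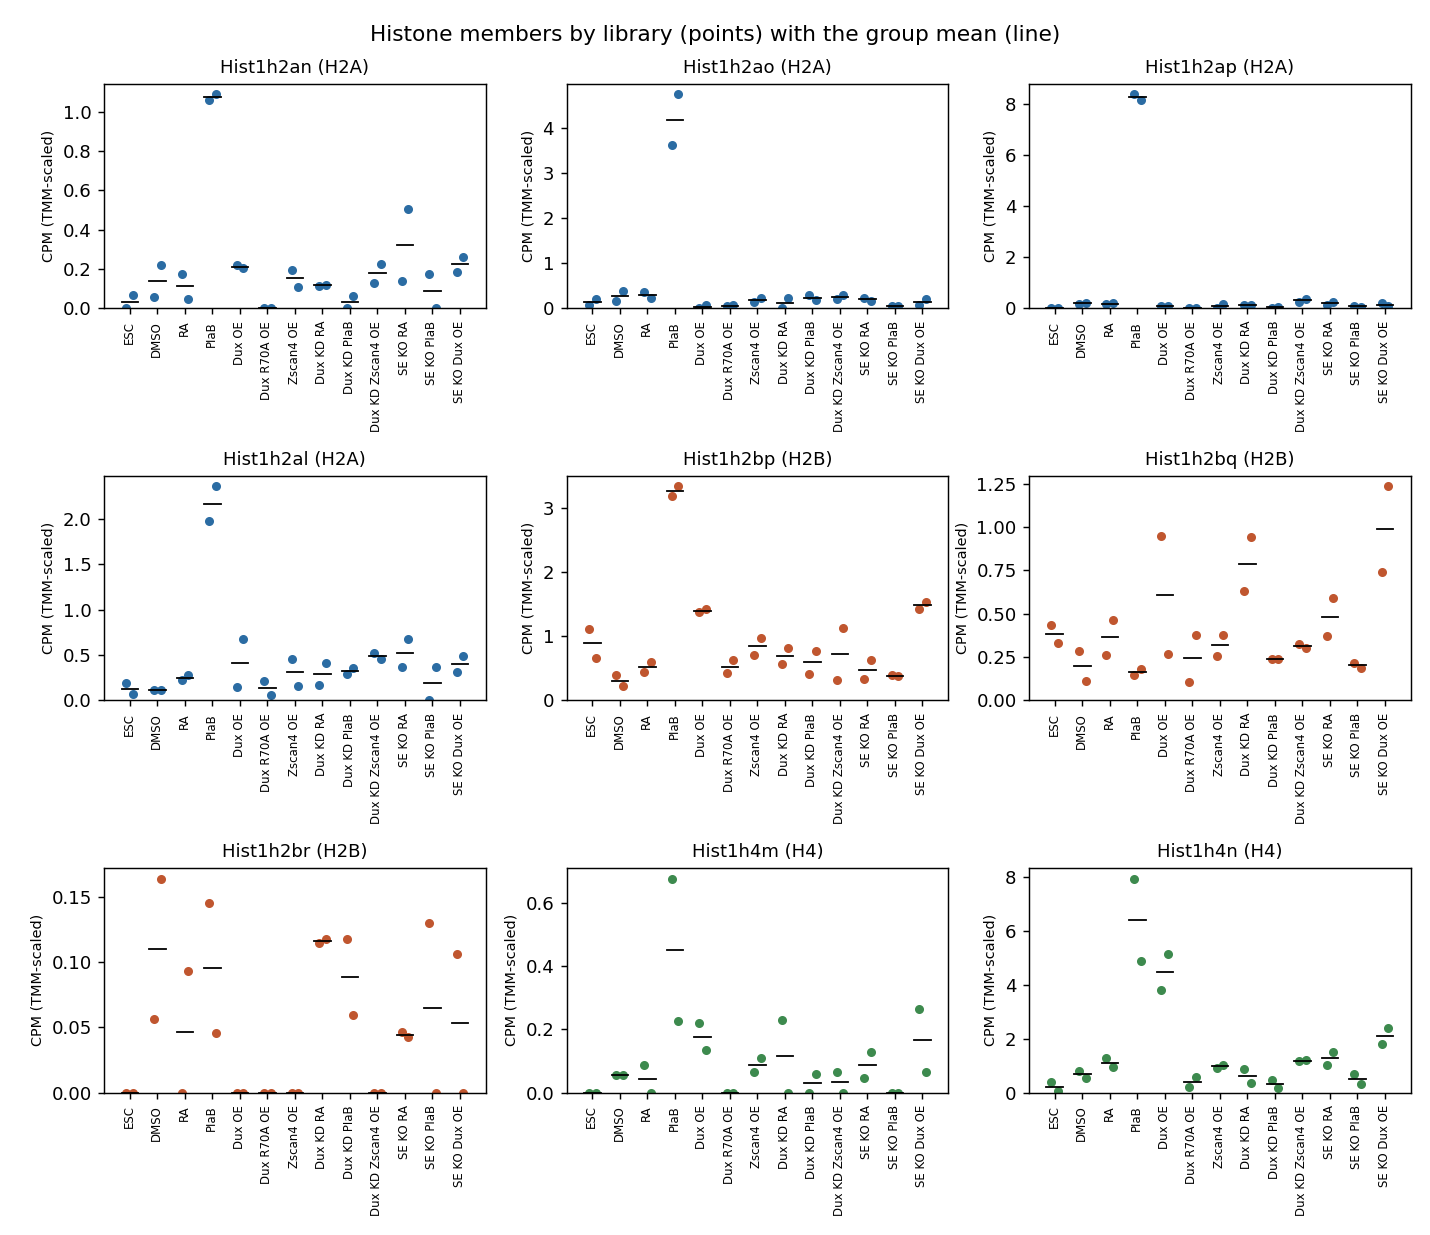
Level of each of the 9 histone genes in CPM (TMM-scaled, linear axes that differ between panels), with 1 point per library and a line at the mean of the 2 libraries of each of the 13 groups. PlaB is the highest group for the 4 H2A genes, for Hist1h2bp and for both H4 genes, Dux OE is the second highest for Hist1h4n, and in Hist1h2bq and Hist1h2br the PlaB points lie among those of the other groups.

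Summed over the 9 genes, the level was 27.1 and 25.1 CPM in the PlaB libraries and 2.1 and 2.03 CPM in DMSO. Every other library lay between 1.02 and 7.97 CPM, with the Dux OE libraries, at 6.78 and 7.97, and those of SE KO Dux OE, at 5.09 and 6.28, at the upper end. From counts pooled over both libraries, PlaB was 12.6 times DMSO (95% interval 9.98 to 16.2, counting error only, as for every ratio here), and the other 61 genes together were 8.4 times DMSO (7.94 to 8.9). In bulk RNA, fewer cells making a transcript and less of it in each cell cannot be told apart.

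**Figure D3:**
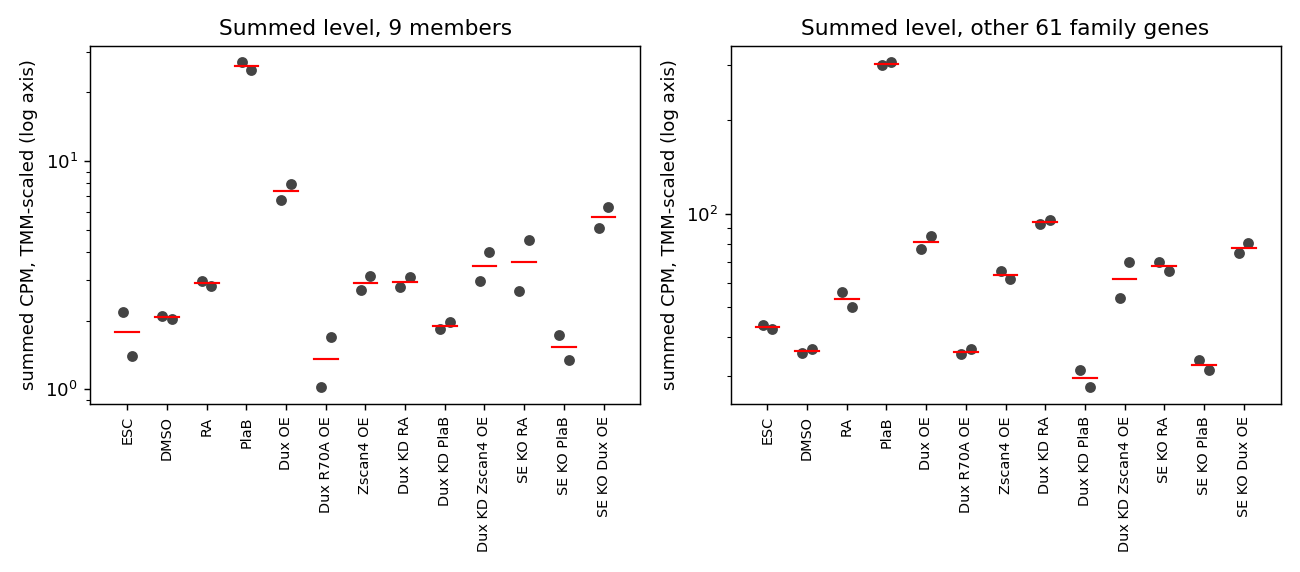
Summed level in CPM (TMM-scaled, log axes) of the 9 histone genes (left) and of the other 61 genes of the family (right), with 1 point per library and a line at the group mean. The PlaB libraries, at 27.1 and 25.1 CPM for the 9 genes, lie above all others in both panels.

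PlaB was compared with DMSO to ask how the histone genes changed when splicing was inhibited. Of the 9 genes, 6 were called higher in PlaB (edgeR quasi-likelihood test, Benjamini-Hochberg adjusted p under 0.05 and a log2 fold change of at least 1) and 0 lower. Over all 20953 tested genes 32.3% were called higher and 26.6% lower, and among the tested single-exon genes 44.7%. Hist1h4m and Hist1h2br did not pass the filter on low counts. Hist1h2an, Hist1h2ao and Hist1h2ap passed it only through the PlaB libraries, so that a difference was built into their being tested. This holds for every comparison below that includes the PlaB libraries. Without any filter, 6 of the 9 were again called higher, against 17.2% of 39876 genes. Those are all genes with at least 1 count, while the 9 held at least 10, so the shares are not like for like.

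The H2A genes, apart from the pseudogene Hist1h2al, encode a core histone. Among them, Hist1h2ap had 173 and 180 counts in PlaB and 3 and 4 in DMSO, or 8.37 and 8.15 CPM against 0.17 and 0.219. Both PlaB libraries lay far above every other library. Its log2 fold change was 5.36 ± 0.48 (SE; edgeR adjusted p = 2.07e-10), and the ratio of counts was 42.3 (20.3 to 106).

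Hist1h2ao, whose coding sequence is the same, had 75 and 105 counts in PlaB, or 3.63 and 4.76 CPM, and 0.17 and 0.384 CPM in DMSO. The groups did not overlap, and the log2 fold change was 3.89 ± 0.56 (edgeR adjusted p = 5.27e-07). The processed pseudogene Hist1h2al had 41 and 52 counts against 2 and 2, and its log2 fold change was 4.21 ± 0.79 (edgeR adjusted p = 2.47e-05). Hist1h2an, the most thinly covered of the 4, had 22 and 24 counts against 1 and 4, a log2 fold change of 2.90 ± 0.81 (edgeR adjusted p = 0.00196). Without DMSO replicate 1 the Hist1h2an call was lost, and its log2 fold change over the libraries left out in turn ran from 2.16 to 4.07. The sum of the 4 H2A genes was 15.7 ± 0.929 CPM in PlaB and 0.721 ± 0.298 in DMSO (SD, n = 2).

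The counts of the H2B genes, which encode the histone that pairs with H2A, divided. Hist1h2bp has a transcript with a stem-loop and a spliced isoform without it. This gene had 66 and 74 counts in PlaB, or 3.19 and 3.35 CPM, and 0.397 and 0.219 CPM in DMSO, without overlap. Its log2 fold change was 3.39 ± 0.48 (edgeR adjusted p = 3.29e-07). Hist1h2bq, for which no stem-loop is annotated and which has spliced isoforms, had 3 and 4 counts in PlaB and 5 and 2 in DMSO. Its groups overlapped, with a log2 fold change of -0.25 ± 0.87 (edgeR adjusted p = 0.799) and a count ratio of 0.839 (0.251 to 2.8), an interval that lies below the ratio of Hist1h2bp, 10.7 (5.79 to 21.9). Of the 50-base windows, 2.7% in Hist1h2bq and 55.9% in Hist1h2bp were found in no other gene. Since the counting of shared reads is not given, a difference between these genes cannot be told from a difference in counting. Hist1h2br had 3 and 1 counts in PlaB and 1 and 3 in DMSO, too few for a test. Of the H2A genes, Hist1h2an and Hist1h2al also hold no stem-loop in their models, and both were called higher.

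Hist1h4n, a gene of the core histone H4, had 164 and 108 counts in PlaB, or 7.93 and 4.89 CPM, and 0.794 and 0.548 CPM in DMSO. The PlaB libraries differed more from each other than for any other called gene of the set, yet both lay above DMSO. Its log2 fold change was 3.25 ± 0.42 (edgeR adjusted p = 7.79e-08). Hist1h4m, of the same coding sequence, had 14 and 5 counts in PlaB and 1 and 1 in DMSO, and the ratio of counts was 7.97 (1.92 to 70.6).

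**Figure D4:**
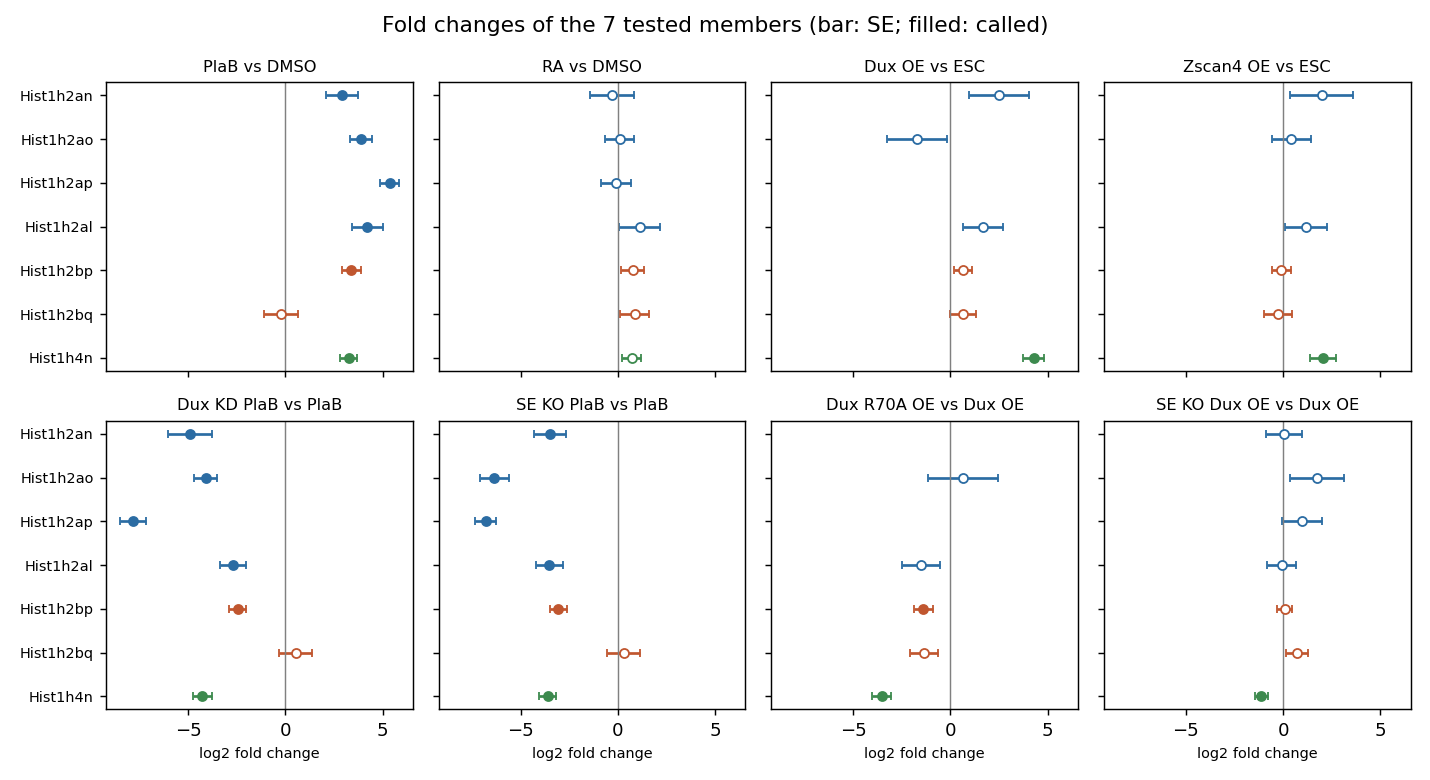
Log2 fold changes of the 7 tested histone genes in 8 comparisons, with bars for the standard error and filled points where the gene was called; a gene that held no counts in both libraries of a group has no point. The called genes lie to the right in PlaB vs DMSO and to the left in Dux KD PlaB vs PlaB and SE KO PlaB vs PlaB, while Hist1h2bq stays near 0 and open in all 3.

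The rise was not particular to the 9 genes. Of the other 61, 48 were tested, 33 were called higher and 1 lower, and their median log2 fold change was 2.43, against 0.22 for all tested genes. Called higher were 4 of 6 tested H1 genes, 10 of 12 H2A, 6 of 11 H2B, 6 of 9 H3 and 7 of 10 H4, and by cluster 27 of 41 in Hist1, 3 of 4 in Hist2, 2 of 2 in Hist3 and 1 of 1 in Hist4. The H2A genes H2ac1, H2ac13, H2ac14 and H2ac20 and the H2B gene H2bc7 passed the filter only through the PlaB libraries. For these a difference was built into their being tested. Without any filter, 32 of the 56 with any count were called higher and 1 lower, against 17.2% of all genes called higher. The median of all genes was 0.38 with DESeq2's size factors and 0.48 with library size only, and the 6 calls kept their direction under both. Of the testis histones, H2ac1 had 28 and 13 counts in PlaB and 0 in both DMSO libraries, H2bc1 had 5 and 3 against 0 and 0, and H1f6 had 12 and 5 against 15 and 14.

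Genes that make and process histone mRNA moved both ways in the same comparison. Of 26 listed, 25 were tested, 4 were called higher and 7 lower, with a median log2 fold change of -0.28. Without any filter, 2 were called higher and 8 lower. Over all tested genes 32.3% were called higher and 26.6% lower, and these shares stand beside every list of this comparison. Higher with the filter were Slbp, which binds the stem-loop (1.11), Lsm10 of the U7 snRNP (2.05), the cyclin Ccne2 (1.12) and Lsm1, of the mRNA decay complex (2.23). Slbp and Ccne2 lay near the threshold of 1. Lower were the stem-loop exonuclease Eri1 (-2.33), Lsm11 of the U7 snRNP (-2.22), the cleavage factors Cpsf2 (-1.54) and Sympk (-1.49), the octamer-binding factor Pou2f1 (-2.44), Srrt (-1.54) and the decay helicase Upf1 (-2.81). Of 22 genes of S phase, the phase in which the histone genes are transcribed, 2 were called higher and 8 lower, among them Pcna and Mcm2, and their summed level was 3730 ± 55.7 CPM in PlaB and 6740 ± 59.9 in DMSO. Of 11 tested replacement histones, whose mRNAs carry a poly(A) tail and are made outside S phase, H2az2 (3.29), H2az1 (1.23) and H3f3b (2.68) were higher and H1f0 (-4.57), H1f10 (-7.79) and Macroh2a1 (-1.55) lower. Counts for G2 and mitosis were 2 higher and 3 lower of 10, and for histone chaperones 1 higher and 4 lower of 12.

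RNAs that normally lack a poly(A) tail were also measured. The summed level of 12 such RNAs was 12.1 ± 0.134 CPM in PlaB and 1.53 ± 0.0763 in DMSO, with 3 of the 12 at 0 in PlaB and 8 at 0 in DMSO. Only 3 were tested, of which Rn7sk was called higher (log2 fold change 3.52), as was Rny1, which was at 0 in DMSO, and Terc was not (0.81, edgeR adjusted p = 0.084). Of 38 tested small nucleolar RNAs, chosen by name, 18 were called higher and 6 lower. In Dux KD PlaB all 3 tested were called lower than in PlaB, and the 9 genes were lower in sum. In RA all 3 were called higher than in DMSO (median log2 fold change 2.43), where 0 of the 9 were called. There Rn7sk stood at the threshold, with a log2 fold change of 1, and was not called without the filter (0.97). In SE KO PlaB all 3 were called higher than in DMSO (2.08), and the ratio of summed counts of the 9 was 0.751 (0.533 to 1.06). The part of such RNAs, of tailing or of selection in the histone result was not tested. The ESC markers fell in the same comparison (4 of 5 called lower; 1650 CPM in sum against 4510), and 2-cell-like markers rose (5 of 5).

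Retinoic acid gave smaller values. The 9 genes summed to 2.99 and 2.84 CPM in RA, both above DMSO, and the ratio of counts was 1.41 (1.06 to 1.91). None of the 9 was called by edgeR between RA and DMSO, where 20.6% of all genes were called higher and 10.4% lower, and the adjusted p ranged from 0.213 for Hist1h4n to 0.942 for Hist1h2ao. At an unadjusted p under 0.05 the count was also 0, and DESeq2 called 0. Hist1h4n had 29 and 20 counts in RA, or 1.28 and 0.931 CPM, above both DMSO libraries (log2 fold change 0.72 ± 0.49). The test of PlaB against RA itself, in which the DMSO control cancels, called 6 of the 9 higher in PlaB, with 27.9% of all genes called higher there and 30% lower. These were the 6 called against DMSO, with log2 differences from 2.53 for Hist1h4n to 5.46 for Hist1h2ap. Hist1h2an, Hist1h2ao and Hist1h2ap again passed the filter only through the PlaB libraries.

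DMSO and ESC, the controls, were not alike for 2 of the 9, with 8.32% of all genes called higher in DMSO and 7.91% lower. Hist1h2bp had 18 and 10 counts in ESC and 7 and 4 in DMSO, or 1.12 and 0.666 CPM against 0.397 and 0.219. It was lower in DMSO, by a log2 fold change of -1.53 ± 0.57 (edgeR adjusted p = 0.0287). Hist1h2ap had 0 counts in both ESC libraries and 3 and 4 in DMSO, with a lower 95% limit of 1.25 for the count ratio (edgeR adjusted p = 0.0152). Both calls rest on few counts, and over the libraries left out in turn between 0 and 2 of the 9 were called. Overexpressing cells were compared with ESC, and their values therefore depend on the choice of control.

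Dux OE was compared with ESC. The Dux OE cells carry an inducible construct and received doxycycline, while ESC are not labelled with either, so that Dux, the construct and the drug cannot be told apart here, nor in the comparisons of Zscan4 OE and Dux R70A OE with ESC. Only 1 of the 9, Hist1h4n, was called higher and 0 lower, where 7.38% of all genes were called higher and 2.12% lower. Hist1h4n had 52 and 76 counts in Dux OE and 6 and 1 in ESC, or 3.79 and 5.13 CPM against 0.374 and 0.0666. The groups were far apart, with a log2 fold change of 4.28 ± 0.55 (edgeR adjusted p = 7.49e-07) and a ratio of counts of 19.9 (9.39 to 50.5).

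The H2A genes that led the rise with PlaB stayed low in Dux OE. Hist1h2ap had 1 and 1 counts and Hist1h2ao 0 and 1, against 173 and 180, and 75 and 105, in PlaB. The sum of the 4 H2A genes was 0.725 ± 0.407 CPM in Dux OE, while that of the 2 H4 genes was 4.64 ± 0.892. Against ESC, the count ratio was 3.27 (0.99 to 13.9) for Hist1h2al, 6.54 (0.793 to 301) for Hist1h2an and 0.272 (0.00553 to 2.75) for Hist1h2ao. None of these intervals excludes equal levels. Hist1h2ap had 0 counts in both ESC libraries. Hist1h4m had 3 and 2 counts in Dux OE and 0 in both ESC libraries, with a lower 95% limit of 0.998 for the count ratio, which does not exclude equal levels. Hist1h2bp had 1.38 and 1.42 CPM, above both ESC libraries but with a log2 fold change of 0.64 ± 0.46 (edgeR adjusted p = 0.334). Of the 48 other tested genes of the family, 22 were called higher and 0 lower, with a median of 1.74. In this comparison 0 of 25 tested processing genes and 0 of 22 S phase genes were called in either direction, while all 3 tested RNAs without a tail were called higher, and the 12 together were at 20.3 ± 2.37 CPM in Dux OE and 1.33 ± 0.291 in ESC. Their part in the Hist1h4n result was not tested.

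Zscan4 overexpression was compared with ESC too. Hist1h4n had 14 and 19 counts in Zscan4 OE, or 0.906 and 1.03 CPM, above both ESC libraries, with a log2 fold change of 2.08 ± 0.67 (edgeR adjusted p = 0.0138). It was the only one of the 9 called, with 7.25% of all genes called higher and 4.39% lower. Against DMSO in place of ESC the log2 fold change was 0.53 (adjusted p = 0.462), and the call was lost.

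Dux R70A OE was compared with Dux OE to ask whether the mutant acted on the genes as Dux did. Of the 9, 3 were called lower and 0 higher, where 7.51% of all genes were called lower and 6.11% higher. Hist1h4n had 4 and 9 counts in Dux R70A OE, or 0.215 and 0.565 CPM, below both Dux OE libraries, with a log2 fold change of -3.54 ± 0.49 (edgeR adjusted p = 1.53e-06). Hist1h2bp had 0.429 and 0.628 CPM, also below both, with -1.41 ± 0.49 (edgeR adjusted p = 0.0231). Hist1h2an had 0 counts in both Dux R70A OE libraries and 3 and 3 in Dux OE, with an upper 95% limit of 0.701 for the count ratio (edgeR adjusted p = 0.0384).

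The Hist1h4n call held without each library in turn, but that of Hist1h2an was lost under each of the 4 left out and that of Hist1h2bp under 3 of them. Hist1h4m had 0 counts in both Dux R70A OE libraries and 5 in all in Dux OE, with an upper limit of 0.901 for the count ratio. Against ESC, 0 of the 9 were called in Dux R70A OE (10.2% of all genes higher, 6.72% lower), and the ratio of summed counts was 0.738 (0.489 to 1.11). Here edgeR gave 0 at an unadjusted p under 0.05 and DESeq2 called 0. All 3 tested RNAs without a tail were called lower with the mutant than with Dux, and their part in this result was not tested.

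Deletion of the super-enhancer was combined with Dux OE as well. Hist1h4n was called lower in SE KO Dux OE than in Dux OE, the only one of the 9, where 3.84% of all genes were called lower and 2.46% higher. It had 67 and 73 counts, or 1.78 and 2.39 CPM, below the Dux OE libraries at 3.79 and 5.13, with a log2 fold change of -1.11 ± 0.35 (edgeR adjusted p = 0.0199) and a ratio of 0.457 (0.357 to 0.585). Its level stayed above that of ESC. Between the same groups 4 of 5 fibroblast markers were called higher in SE KO Dux OE, with a median log2 fold change of 4.74, and all 5 markers of the 2-cell-like state lower, with a median of -1.15. Their part in the Hist1h4n result was not tested. The call was lost without Dux OE replicate 2 or without SE KO Dux OE replicate 1, with log2 fold changes from -1.31 to -0.84 over the libraries left out. Hist1h2bq had its highest level here, 0.743 and 1.24 CPM, which overlapped the 0.947 and 0.27 CPM of Dux OE (log2 fold change 0.71 ± 0.55, edgeR adjusted p = 0.376).

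In the libraries labelled Dux KD PlaB, the 6 genes that rose with PlaB were lower than in PlaB. These 6 of the 9 were called lower and 0 higher, where 28.8% of all genes were called lower and 26.1% higher. For Hist1h2an, Hist1h2ao and Hist1h2ap a fall from PlaB was built in, since they passed the filter only through the PlaB libraries. Hist1h2ap had 0 and 1 counts against 173 and 180, with a log2 fold change of -7.84 ± 0.66 (edgeR adjusted p = 3.57e-11) and a ratio of 0.0036 (9.08e-05 to 0.0202). Hist1h4n had 8 and 3 counts, or 0.472 and 0.179 CPM, and a log2 fold change of -4.27 ± 0.48 (edgeR adjusted p = 6.67e-09). Hist1h2ao fell by 4.11 and Hist1h2an by 4.91 on the log2 scale, while Hist1h2al, at 0.295 and 0.359 CPM, fell by 2.71 and Hist1h2bp, at 0.413 and 0.777 CPM, by 2.45. No library of Dux KD PlaB overlapped PlaB for any of the 6. Hist1h2bq had 4 and 4 counts against 3 and 4, with a ratio of 1.45 (0.46 to 4.7). All 3 tested RNAs without a tail were called lower than in PlaB too (Rn7sk -3.25, Terc -3.38 and Rny1 -3.72). Their part in this result was not tested.

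Against DMSO, 0 of the 9 were called in Dux KD PlaB (edgeR), where 7.53% of all genes were called higher and 4.14% lower, and the ratio of summed counts was 0.921 (0.649 to 1.3). Hist1h2ap came nearest to a call, at 1 count in all against 7 (edgeR adjusted p = 0.0918), and was the 1 gene with an unadjusted p under 0.05, while DESeq2 called 0. In RA, 0 of the 9 were called with the knockdown, where 6.41% of all genes were called higher and 4.53% lower. The edgeR adjusted p-values ran from 0.149 to 0.988. By counting error only, the count ratio of Dux KD RA to RA was 0.55 (0.313 to 0.935) for Hist1h4n and 2.17 (1.13 to 4.31) for Hist1h2bq. The intervals of the other members included equal levels, and the 9 together gave 1.02 (0.775 to 1.33). The other genes of the family, summed, gave 1.78 (1.68 to 1.87). The difference of the knockdown effect between PlaB and RA was tested itself, and it was called lower in 6 of the 9, with 26.6% of all genes called lower and 25.5% higher. This count was 5 with no filter and 3 to 6 over the libraries left out in turn, with 3 without Dux KD PlaB replicate 1. The Hist1h2ao difference, -2.82, turned to 1.47 without Dux KD RA replicate 2. The libraries labelled Dux KD Zscan4 OE likewise gave 0 calls of the 9 against Zscan4 OE (5.78% and 5.35% of all genes). Hist1h4n had 1.17 and 1.2 CPM there against 0.906 and 1.03. Zscan4c and Zscan4d were called lower in the same comparison, with log2 fold changes of -6.74 and -6.6. From ESC to Zscan4 OE they had risen by 4.1 and 3.42. No doxycycline dose or time is given for the Dux KD Zscan4 OE libraries, and whether Zscan4 was induced in them was not tested.

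The libraries labelled SE KO PlaB gave a similar set of values. The same 6 genes were called lower than in PlaB and 0 higher, with 26.1% of all genes called lower and 25.9% higher. Here too a fall was built in for Hist1h2an, Hist1h2ao and Hist1h2ap, which passed the filter only through the PlaB libraries. Hist1h2ap had 2 and 1 counts, a log2 fold change of -6.81 ± 0.55 (edgeR adjusted p = 2.26e-11), and Hist1h2ao 1 and 1 counts, a log2 fold change of -6.36 ± 0.73 (edgeR adjusted p = 6.42e-09). Hist1h4n had 0.693 and 0.326 CPM, below both PlaB libraries, with -3.62 ± 0.42 (edgeR adjusted p = 1.3e-08). Hist1h2al fell by 3.54, Hist1h2an by 3.5 and Hist1h2bp by 3.08 on the log2 scale. Hist1h4m was not tested, with 0 counts in both libraries against 19 in all in PlaB, an upper 95% limit of 0.206 for the count ratio. Of the 3 tested RNAs without a tail, Terc was called higher than in PlaB (1.26) and Rn7sk lower (-2.34).

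Against DMSO, Hist1h2ao alone was called lower in SE KO PlaB, where 11% of all genes were called lower and 17.1% higher. It had 1 and 1 counts against 3 and 7, a ratio of 0.161 (0.0172 to 0.756; log2 fold change -2.47 ± 1.06, edgeR adjusted p = 0.0364). With DESeq2 the adjusted p was 0.0703. The sum of the 9 was 1.73 and 1.35 CPM in SE KO PlaB, below both DMSO libraries. The ratio of summed counts was 0.751 (0.533 to 1.06), which does not exclude equal levels. The 2-cell-like markers were far above DMSO in the same libraries. In RA, SE KO gave 0 calls of the 9 (6.57% of all genes higher, 11% lower). For SE KO in RA, and for Dux KD in RA and with Zscan4 OE, edgeR gave 0 of the 9 at an unadjusted p under 0.05 and DESeq2 called 0. The difference of the SE KO effect between PlaB and RA was called lower in 6 of the 9, with 20.7% of all genes called lower and 28.3% higher. The PlaB libraries are shared by the comparisons with Dux KD PlaB and SE KO PlaB, so that these do not count as separate support.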

How the data were processed

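RNA-seq counts of 26 poly(A)-selected libraries, 2 in each of 13 groups assigned by title, were taken from the table of raw counts per gene that the authors deposited. The submitters' processing notes name FastQC, Trimmomatic, STAR, featureCounts, DESeq2 and the build mm10. Strand, the treatment of reads with several matches and the annotation release are not given in the sources used here. Of the table's genes with a symbol in GENCODE M21, 99.2% had the same start and end, so M21 and its build were used for transcripts and for the older family symbols. Reads of near-identical genes may be lost or split in counting, and poly(A) selection removes most histone mRNA.

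All 26 libraries entered 1 edgeR model (version 4.0.16, R 4.3.3, limma 3.58.1) with group means, TMM scaling, filterByExpr (20953 of 55291 genes) and a prior count of 0.125. The quasi-likelihood F-test was run with Benjamini-Hochberg adjustment over all tested genes, and a gene was called at an adjusted p under 0.05 with a log2 fold change of at least 1 in size. The script was tested on simulated counts. Ratios of pooled counts have exact binomial 95% intervals, and intervals and floors of 3 counts cover counting error only. Beyond the name DESeq2 in the submitters' notes, the test used by the study on these libraries is not given in the sources used here.

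The members, gene lists and tests were chosen with earlier results of these data known. All 9 members were described. Of other genes, those of the processing and replacement lists that were called, and 3 testis histones, were named by rule, and H2ac8, Rn7sk, Rny1, Terc, Pcna and Mcm2 after their values were seen. Replicate pairs had chi-square per degree of freedom of 1.55 to 30.2, above sampling noise in all groups. Replicate numbers did not pair the samples (correlation of deviations from -0.0473 to 0.0237 over comparisons). Alternatives were DESeq2 (version 1.42.0), its size factors in edgeR, library size only, no filter, no fold threshold, a fit of the compared groups only, the other control, a replicate block and each library left out. The comparison of SE KO PlaB with DMSO, the comparison with the other 61 genes, the single-exon background and the filter without PlaB libraries were added after seeing the data.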

Additional observations from a re-analysis of the deposited data

Results flagged for a closer look

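Each result here was singled out because 2 effects of the same kind differed in the edgeR test of the difference itself, with Benjamini-Hochberg adjustment over all genes. None is weighed here, and the 3 sets share the PlaB libraries. Hist1h2an, Hist1h2ao and Hist1h2ap passed the filter only through those libraries, so that a difference was built into their being tested in each set.

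The effect of PlaB exceeded that of RA, both against DMSO, by a log2 difference of 3.18 for Hist1h2an (adjusted p = 0.000762), 2.64 for Hist1h2bp (2.44e-06), 3.81 for Hist1h2ao (3.71e-07), 2.53 for Hist1h4n (8.4e-07), 5.46 for Hist1h2ap (8.63e-11) and 3.09 for Hist1h2al (0.000136).

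The effect of the Dux knockdown was lower in PlaB than in RA by -4.95 for Hist1h2an (adjusted p = 0.0149), -2.87 for Hist1h2bp (0.00053), -2.82 for Hist1h2ao (0.0428), -3.42 for Hist1h4n (0.00027), -7.23 for Hist1h2ap (9.41e-05) and -2.93 for Hist1h2al (0.0229). The Hist1h2ao difference turned to 1.47 without Dux KD RA replicate 2, and its call was lost with no filter and with the compared groups only.

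The effect of SE KO was lower in PlaB than in RA by -4.99 for Hist1h2an (adjusted p = 0.000899), -2.98 for Hist1h2bp (0.000479), -5.81 for Hist1h2ao (7.22e-05), -3.83 for Hist1h4n (3.39e-06), -6.94 for Hist1h2ap (1.44e-06) and -4.6 for Hist1h2al (0.000305). One of the SE KO RA libraries carries the genotype label WT.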

How the results depend on the processing

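Under the alternatives that left no library out, 135 of the counts and summed levels that answer a comparison stayed within 1.5 times the main count or 1 SD and 10 moved, while 315 named fold changes kept their call and 5 lost it. With the other control, 2 of the 9 genes were called between RA and ESC in place of 0 against DMSO, 2 between Dux OE and DMSO in place of 1, and 1, lower, between Dux R70A OE and DMSO in place of 0. Of all 20953 tested genes, 3811 were called in either direction between Dux OE and DMSO, and 1897 between Dux R70A OE and DMSO. That number is not given here for RA and ESC, so these counts are not read as a result about the 9 genes. With the compared groups only, 1 gene was called between DMSO and ESC in place of 2, and 0 between SE KO PlaB and DMSO in place of 1, which DESeq2 also gave as 0. With library size only, the summed level was 1.94 CPM in DMSO, 3.13 in RA, 29.3 in PlaB and 3.34 in Dux KD RA. The cause was not tested. The Hist1h2ao difference of the knockdown effect lost its call with no filter (-2.65, edgeR adjusted p = 0.0808) and with the compared groups only (-2.83, edgeR adjusted p = 0.0501), and Hist1h2an in Dux R70A OE vs Dux OE with no filter (edgeR adjusted p = 0.0527). The fit with a replicate block gave 6 calls for PlaB vs DMSO, as without it, and changed no other call. The test of PlaB against RA was not run with the other control, since the control cancels.

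Over the libraries left out in turn, the number of the 9 genes called was 5 to 7 for PlaB vs DMSO, 0 to 2 for DMSO vs ESC, 1 to 1 for Dux OE vs ESC, 0 to 1 for Zscan4 OE vs ESC (0 without ESC replicate 2 or Zscan4 OE replicate 2), 1 to 2 for Dux R70A OE vs Dux OE, 6 to 7 for both Dux KD PlaB and SE KO PlaB vs PlaB, and 0 to 1 for SE KO Dux OE vs Dux OE, SE KO PlaB vs DMSO, Dux KD RA vs RA and Dux KD Zscan4 OE vs Zscan4 OE. It was 0 for the other comparisons of 2 groups, and 3 to 6, 5 to 7 and 6 to 7 for the differences of the knockdown effect, of the SE KO effect and of PlaB against RA. The Hist1h2ao difference of the knockdown effect ran from -3.77 to 1.47, and was 1.47 without Dux KD RA replicate 2.

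Limits come from depth. Members have 26 to 813 counts in all, and 2 libraries a group give wide intervals, so that a gene that was not called was not shown to be alike between groups.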
